A study of Mus musculus with 6 samples.

Results

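The cytosolic ribosomal protein genes encode the proteins of the cytoplasmic ribosome, the particle that translates most messenger RNA of the cell. The genes were chosen by symbol. Members were the genes whose symbol is Rpl or Rps followed by a digit, together with Rpsa, Rplp0, Rplp1 and Rplp2, and the Rps6k kinases and symbols marked as pseudogenes were left out. The rule found 69 genes among the 22180 genes tested, 42 with large subunit (Rpl) symbols and 27 with small subunit (Rps) symbols. Of these, 58 are core subunits of the ribosome and 11 are paralogs, retrogenes or binding partners that share the symbol. RefSeq lists 89 protein-coding mouse symbols of this form, of which 67 were members. Another 14 were named only on probe sets that name several genes, and 8 were named on no probe set used here. The other two members, Rpl6l and Rps4l, are pseudogenes in RefSeq. The rule also admitted Rps19bp1, which encodes a protein that binds Rps19, and Rps23rg1, a retrogene derived from Rps23.

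The cells were fibroblasts from the lungs of adult mice of mixed strain with the labelled genotype 2640 UBCCreERT/RSmoM2. These mice carry CreERT2, a Cre recombinase that 4-hydroxytamoxifen (4OHT) activates, under the ubiquitin C promoter, and a Cre-dependent allele of SmoM2, an activated form of the Hedgehog pathway protein Smoothened, at the Rosa26 locus. The cells had been passaged at most 3 times, and 3 wells received vehicle and 3 wells 1 µg/ml 4OHT for 48 h. Each well gave 1 array, and array values are log2 expression values that the authors had normalized together. All 6 arrays came from cells with both alleles, so the drug, the activated Cre and SmoM2 cannot be told apart in this comparison. The labels do not say that the wells came from separate animals, so each p-value sets the difference against variation among wells only, and that variation may be technical.

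A mammalian ribosome holds a small (40S) subunit, which binds the messenger RNA and reads its codons, and a large (60S) subunit, which joins the amino acids. Cells make the ribosomal proteins in matched amounts, and much of that matching happens in translation. Messenger RNAs of ribosomal proteins typically begin with a C and a run of pyrimidines, the 5′ terminal oligopyrimidine (TOP) motif, through which the kinase complex mTORC1 and the RNA-binding protein Larp1 set how much of each messenger is translated. An array measures the messenger and not its translation. Each labelling began with 100 ng of RNA and the arrays were normalized to each other, so a value is a level relative to the other transcripts. In bulk samples fewer expressing cells and less RNA per cell cannot be told apart.

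The TOP motif lies at the transcription start, and 8 start regions are shown because their genes include members at both ends of the range of differences and Rps6, the phosphorylated protein of the mTORC1 pathway. Each sequence is from RefSeq (GRCm38.p6), 5′ to 3′ on the transcribed strand, with 25 bases before the annotated start and 15 bases from it. Capitals mark a TOP run, taken as a C followed by at least 4 pyrimidines, on the transcribed strand, that begins within 5 bases of the annotated start. In Rps6 (chr4:86857353-86857392, minus strand), Rpl15 (chr14:18270972-18271011, minus), Rps9 (chr7:3704016-3704055, plus), Rplp2 (chr7:141447626-141447665, plus) and Rpl34 (chr3:130730384-130730423, minus) such a run was found. In Rps19 (chr7:24884567-24884606, plus), Rps15 (chr10:80292406-80292445, plus) and Rpl26 (chr11:68901541-68901580, plus) none was found in this window.
Rps6: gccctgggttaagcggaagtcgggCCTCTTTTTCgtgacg
Rpl15: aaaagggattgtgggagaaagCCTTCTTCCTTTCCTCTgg
Rps9: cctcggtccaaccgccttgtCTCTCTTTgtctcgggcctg
Rplp2: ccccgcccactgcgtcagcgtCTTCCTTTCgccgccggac
Rpl34: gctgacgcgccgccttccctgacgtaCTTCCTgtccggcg
Rps19: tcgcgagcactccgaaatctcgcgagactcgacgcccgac
Rps15: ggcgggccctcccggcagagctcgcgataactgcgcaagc
Rpl26: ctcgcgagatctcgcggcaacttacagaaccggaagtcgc

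Over the 54 members with a start region in RefSeq, 23 held a TOP run (42.6%), against 3684 of 16990 genes tested that have one (21.7%). The letters CGGAAG, the core to which GABP and other ETS factors bind, stood on either strand between 250 bases before and 50 bases after the start in 34 of 54 members (63.0%) and in 3953 of the 16990 genes (23.3%). The motifs overlapped in 1 region of a member. The 23 members with a run had a median log2 difference, 4OHT minus vehicle, of 0.031, with 17 positive, and the 31 with a region and no run had a median of 0.019, also with 17 positive. These are counts of letters in a fixed window and no test of binding or of TOP control.

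Each ribosomal protein messenger was read from the brightest probe set of its gene. After 48 h of 4OHT the fitted changes on these sets ran from -17.4% to 16.8% relative to vehicle. None of the 69 members passed an adjusted p under 0.05 (limma, Benjamini-Hochberg over all genes), whereas 12.0% of all genes tested did (2662 of 22180; 5.38% were higher and 6.62% lower). The smallest adjusted p among the members was 0.0531, for Rps19, so this count lies near the threshold for 1 gene. At an unadjusted p under 0.05 there were 4 members, Rps19, Rpl30 and Rps9 with higher values and Rps15 with lower ones, or 5.8%, against 26.4% of all genes. Rps19 passed the threshold under some alternatives, with an adjusted p of 0.0401 (limma) where arrays were centred on their medians and of 0.0492 without 4OHT replicate 3. With trended and robust variances 3 of the 69 members passed, Rps19, Rps9 and Rpl15, all with higher values. In that fit 4123 of all 22180 genes passed.

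The size of the differences can be bounded. The log2 differences of the members ran from -0.28 (Rps15) to 0.22 (Rpl30), with a median of 0.019 and the middle 50% between -0.043 and 0.051. Over all genes the middle 50% lay between -0.097 and 0.086. The median size of a difference, sign left out, was 0.050 for the members and 0.092 for all genes, with median standard errors of 0.058 and 0.065. The 95% confidence interval lay within 1.2-fold in either direction for 52 of 69 members (75.4%) and for 48.5% of all genes. The 17 other members had intervals that reached beyond 1.2-fold, so for them a change of that size was not excluded by the interval. The members were brighter as a group than all genes (median levels 11.2 and 7.46), and shares at like levels are given below.

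**Figure D1:**
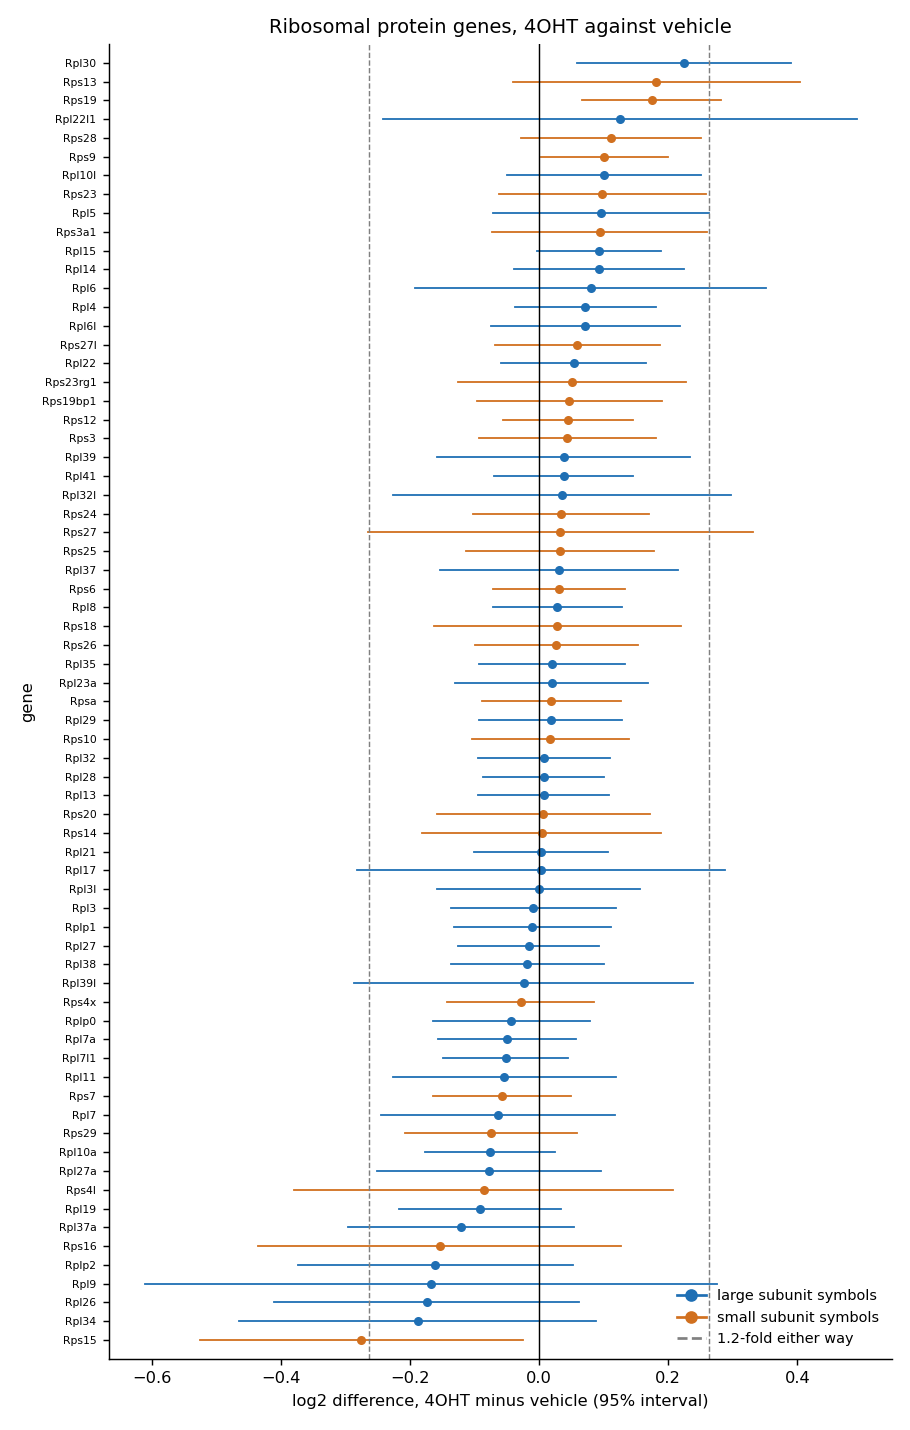
Log2 difference (4OHT minus vehicle, n = 3 arrays each) of each of the 69 ribosomal protein genes with its 95% confidence interval, coloured by subunit and sorted by size, with dashed lines at 1.2-fold either way. The points run from -0.28 for Rps15 to 0.22 for Rpl30, and no gene passed an adjusted p under 0.05.

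Among small subunit genes, Rps19 had the lowest p. Rps19 is a 40S head protein needed for the maturation of ribosomal RNA and is mutated in Diamond-Blackfan anaemia. Its log2 values were 12.35, 12.33 and 12.32 with vehicle and 12.53, 12.55 and 12.45 with 4OHT. The 4OHT wells were all above the vehicle wells, by a log2 difference of 0.17 ± 0.045 (SE, n = 3 per group, 95% interval 0.067 to 0.28), or 12.8%. In the limma fit its adjusted p was 0.0531, and left-out arrays moved it between 0.0492 (without 4OHT replicate 3) and 0.173.

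Rps13 and Rps9, of the body and platform of the 40S subunit, also had higher 4OHT values without overlap. Rps13 read 11.79, 11.77 and 11.47 with vehicle and 11.83, 11.93 and 11.81 with 4OHT, a log2 difference of 0.18 ± 0.093 (adjusted p = 0.274, limma). Most of its spread came from the third vehicle well, which was the low one, and without it the log2 difference was 0.078. Rps9 read 11.45, 11.46 and 11.50 with vehicle and 11.59, 11.56 and 11.58 with 4OHT, a log2 difference of 0.10 ± 0.041 (adjusted p = 0.178, limma). The groups stood apart in Rps9 by less than they did in Rps19.

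On the probe sets used, the largest negative log2 difference of any member was that of Rps15, a 40S head protein near the decoding site. Rps15 read 8.09, 7.67 and 7.83 with vehicle and 7.55, 7.63 and 7.58 with 4OHT. All 4OHT wells were below all vehicle wells, although the first vehicle well was well above the other two. The log2 difference was -0.28 ± 0.10 (95% interval -0.53 to -0.025, adjusted p = 0.154, limma), or -17.4%. Without vehicle replicate 1 the log2 difference of Rps15 was -0.16, and those of Rpl34 (-0.24), Rps16 (-0.23) and Rpl26 (-0.22) were then more negative. Rpl9 was more negative than Rps15 without vehicle replicate 3, and Rpl34 was without 4OHT replicate 3. Rps16, also of the head, had a log2 difference of -0.15 with overlapping groups (adjusted p = 0.472, limma).

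Rps6, whose phosphorylation by S6 kinase is the usual readout of mTORC1 activity, read 14.02, 14.01 and 13.95 with vehicle and 14.04, 14.04 and 14.00 with 4OHT. The groups overlapped, with a log2 difference of 0.031 and a 95% interval of -0.072 to 0.13. Rpsa, which is also known as the laminin receptor, differed by 0.019 (adjusted p = 0.836, limma). Rps28 had values of 12.60, 12.72 and 12.55 with vehicle and 12.71, 12.71 and 12.79 with 4OHT, which overlapped. Its log2 difference was 0.11, and its other probe set, at a mean level of 6.31, differed by -0.23. By position in the subunit, 8 of the 11 measured head proteins and 10 of the 12 measured body and platform proteins had positive log2 differences, with medians of 0.028 and 0.032 and none called.

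Among large subunit genes, Rpl30 had the highest log2 difference of all members. Rpl30 binds its own transcript in yeast and lies at the face that joins the small subunit. It read 6.44, 6.52 and 6.57 with vehicle and 6.79, 6.61 and 6.80 with 4OHT. The groups did not overlap, with a log2 difference of 0.22 ± 0.069 (95% interval 0.059 to 0.39, adjusted p = 0.0911, limma), or 16.8%. Without vehicle replicate 1 it was 0.19, below the 0.24 of Rps13. Rps13 was also above it without vehicle replicate 2 and without 4OHT replicate 3. Rpl15, an early-assembling core protein of the 60S subunit, read 13.55, 13.57 and 13.58 with vehicle and 13.65, 13.68 and 13.65 with 4OHT. That is a narrow spread in both groups and a log2 difference of 0.093 ± 0.040 (adjusted p = 0.202, limma).

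Rpl34, Rpl26, Rpl9 and Rplp2 had the most negative log2 differences of the large subunit. Rpl34 read 9.95, 10.03 and 10.20 with vehicle and 9.66, 9.87 and 10.09 with 4OHT, which overlapped (log2 difference -0.19, adjusted p = 0.364, limma). Rpl26, which lines the exit of the peptide tunnel and binds the p53 messenger, read 7.83, 7.82 and 8.13 with vehicle and 7.63, 7.80 and 7.82 with 4OHT. Its groups touched without overlapping, and the log2 difference of -0.17 had an adjusted p of 0.322 (limma). Rpl9 differed by -0.17 with a standard error of 0.19, since 1 vehicle well and 1 4OHT well were low, and without that vehicle well, replicate 3, it differed by -0.38.

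In the acidic stalk, which recruits translation factors to the ribosome, all 3 measured proteins had negative log2 differences and none was called. Rplp0, the base of the stalk, read 12.74, 12.79 and 12.80 with vehicle and 12.66, 12.78 and 12.77 with 4OHT, with a log2 difference of -0.043. Rplp1 differed by -0.011. Rplp2, the partner of Rplp1, read 6.50, 6.31 and 6.39 with vehicle and 6.36, 6.29 and 6.07 with 4OHT (log2 difference -0.16, adjusted p = 0.313, limma), and its groups overlapped.

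Rpl5 and Rpl11 form a particle with 5S ribosomal RNA that, when it is not built into ribosomes, binds Mdm2 and stabilises p53. Their log2 differences had opposite signs, 0.095 for Rpl5 (adjusted p = 0.452, limma) and -0.054 for Rpl11 (adjusted p = 0.695, limma). Of the proteins at the peptide exit tunnel, 6 of 8 had positive log2 differences, and the median was 0.020. Rpl4, which reaches into the tunnel, was among them at 0.072, and Rpl19 was below 0 at -0.092.

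Groups that do not overlap were found in 9 of the 69 members (13%), against 32.7% of all genes tested. The 5 members with higher 4OHT values were Rpl30, Rps13, Rps19, Rps9 and Rpl15, and the 4 with lower values were Rps15, Rpl26, Rpl10a and Rpl7l1. The share was lower among the members than among all genes, and both directions were present.

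**Figure D2:**
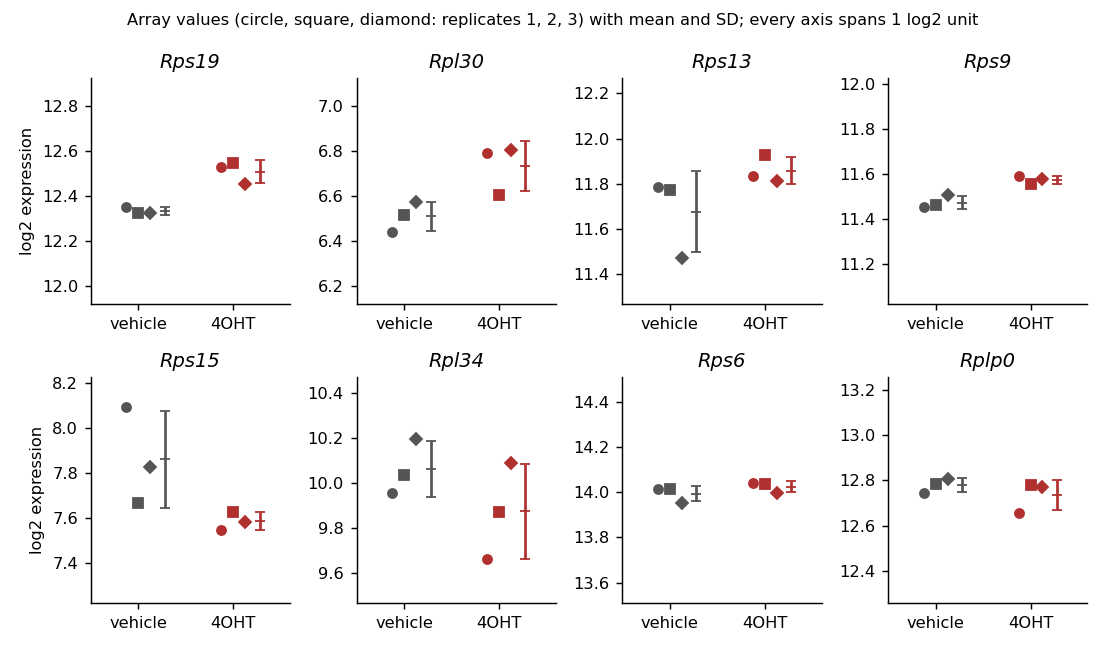
Log2 expression value on each of the 6 arrays for selected ribosomal protein genes, vehicle and 4OHT (3 wells each), with the mean and SD beside the points and each axis spanning 1 log2 unit. The 4OHT points of Rps19 lie above all vehicle points and those of Rps15 below them, while the groups of Rps6 overlap.

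Several ribosomal proteins have paralogs, some of which replace the standard protein in testis or muscle. Rpl22 and its paralog Rpl22l1 had log2 differences of 0.054 (adjusted p = 0.533, limma) and 0.12 (adjusted p = 0.667, limma). Rps27 and Rps27l, a p53 target, differed by 0.033 and 0.059. Rpl3 and the muscle paralog Rpl3l differed by -0.0088 and -0.00086, and Rpl39 and the testis paralog Rpl39l by 0.039 and -0.024. Rpl7 and Rpl7l1 differed by -0.063 and -0.052, and Rps4x and Rps4l by -0.029 and -0.086. Rpl22l1, Rpl3l and Rpl39l lay at mean levels of 6.11, 5.89 and 6.63, under the median of 7.46 over all genes. Whether these cells express them was not tested. No paralog or partner passed the threshold, and a difference between a gene and its paralog was not tested. Over the 58 core members the median log2 difference was 0.017, and over the 11 others it was 0.047.

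The small subunit genes lay slightly higher as a group than the large subunit genes. Of 27 small subunit genes 21 had positive log2 differences, with a median of 0.032, and of 42 large subunit genes 23 had, with a median of 0.0052. Over all genes 10778 of 22180 were positive, with a median of -0.0051. The gap between the subunit medians, large minus small, was -0.027. It was -0.0038 without 4OHT replicate 3 and -0.047 without vehicle replicate 3, so it depended on single wells.

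Per array, the small subunit genes deviated from their own means by medians of -0.019, 0.0063 and -0.025 in the vehicle wells and by -0.00036, 0.0027 and 0.046 in the 4OHT wells. Thus 1 well, 4OHT replicate 3, stood above the others. That well had the highest value of the 6 arrays for 10 of the 27 small subunit genes (37.0%) and the lowest for none. Over all genes it was highest for 15.9% and lowest for 13.3%. Of the 42 large subunit genes it was highest for 7 and lowest for 6. The large subunit genes deviated by -0.0079, 0.0070 and 0.0036 with vehicle and -0.00077, 0.0046 and 0.022 with 4OHT. Vehicle replicate 3 held the lowest value for 23 of the 69 members (33.3%), against 15.2% of all genes. Over all genes the same medians lay between -0.013 and 0.012, so the small subunit genes deviated further in 4OHT replicate 3 than all genes did in any well.

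**Figure D3:**
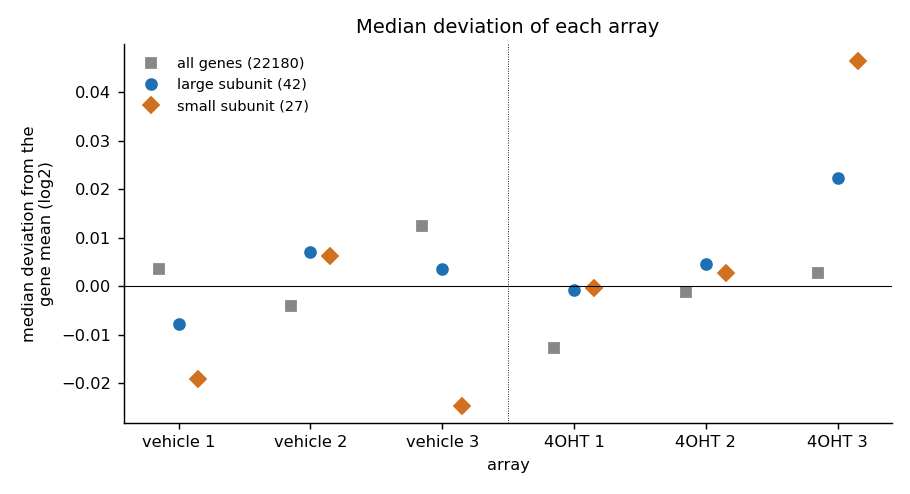
Median deviation of log2 values from each gene's mean over the 6 arrays, for large subunit genes, small subunit genes and all genes tested, by well. The small subunit genes reach 0.046 in 4OHT replicate 3 and lie between -0.025 and 0.0063 in the vehicle wells.

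Standard errors were smaller for bright members than for dim ones (medians 0.047 and 0.077). Of the 69 members, 35 had a mean log2 level of at least 11, 5 lay between 9 and 11, and 29 lay under 9. None of the 35 bright members passed the threshold, whereas 19.9% of all genes at that level did (531 of 2663). Their median log2 difference was 0.020, with 24 of 35 positive. Intervals lay within 1.2-fold for 32 of the 35 (91.4%), against 70.5% of all genes at that level. Rpl28 was among the steadiest, with values between 13.79 and 13.81 on all 6 arrays and a log2 difference of 0.0068. The highest mean level of any gene tested was 14.3, and whether differences near that level are compressed was not tested. Of the 29 dim members, 16 had intervals within 1.2-fold (55.2%), against 40.5% of all genes under 9. Rpl30 and Rps15, at the ends of the range, were both among the dim ones. Rpl30, Rplp2, Rpl11 and Rps16, at mean levels of 6.62, 6.32, 6.76 and 7.39, lay under the median of 7.46 over all genes. Levels were not ranked between genes, since probe sets differ in how well they bind.

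Ribosomal protein genes have many processed copies in the genome, and 25 of the 69 members had more than 1 probe set, 110 probe sets in all. The brightest set stood for each gene. In 11 of the 25 the sets differed in the sign of the log2 difference, and the levels of sets of the same gene lay up to 8.90 log2 units apart, in Rps26. Of 34 other sets with values of their own, 16 had positive differences and 1 passed the threshold when all sets with 1 symbol were tested together, where 11.5% of sets passed. That set belongs to Rpl35, of the tunnel exit, and read 7.40, 7.46 and 7.34 with vehicle and 7.18, 7.19 and 7.14 with 4OHT, a log2 difference of -0.23 (adjusted p = 0.0279, limma). Its groups did not overlap. At an unadjusted p under 0.05 there were 5 of the 34, all lower with 4OHT, against 26.0% of sets with 1 symbol. The log2 differences of the 34 ran from -0.34, in an Rpl7a set at a mean level of 7.03, to 0.21. The lower end lay beyond the -0.28 of Rps15.

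The brightest Rpl35 set read 13.50, 13.58 and 13.47 with vehicle and 13.53, 13.53 and 13.56 with 4OHT, and differed by 0.020. Another dim Rpl35 set, at a mean level of 7.82, differed by 0.074, so the dim sets of this gene had opposite signs. Whether a set reads a copy of the gene was not tested. Among the other sets, the 24 under a level of 9 had a median log2 difference of -0.095 with 8 positive, and the 10 at 9 or above had 0.042 with 8 positive. For Rps19, 2 sets held identical values, and another, dim set at a mean level of 6.96 differed by -0.052. The higher values of Rps19 with 4OHT thus rest on 1 set of measurements.

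**Figure D4:**
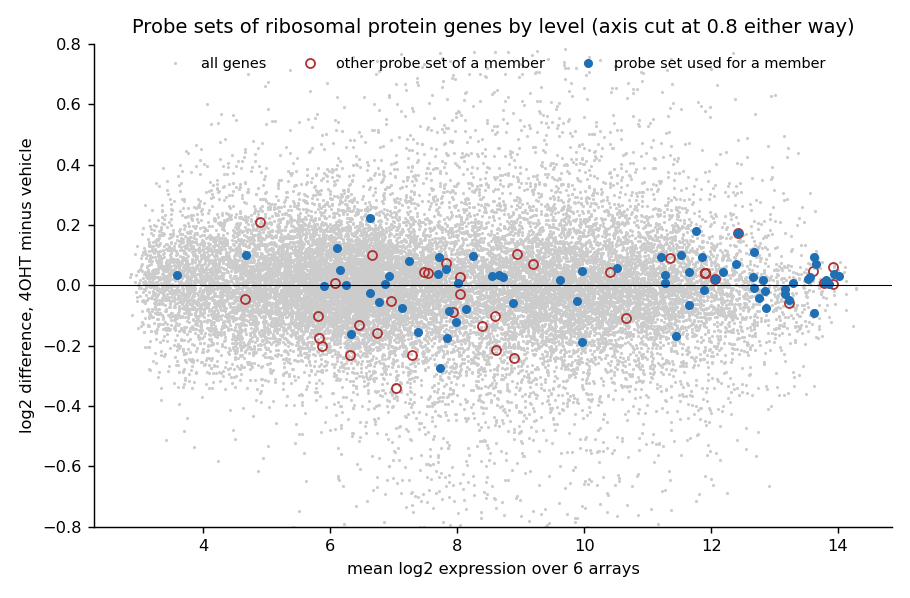
Log2 difference (4OHT minus vehicle) against mean log2 level for the probe sets of the 69 ribosomal protein genes, with the set used for each gene filled, the other sets open and all genes tested in grey, on an axis that ends at 0.8 either way. The used sets lie between -0.28 and 0.22, and the other sets under a level of 9 have a median of -0.095.

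Genes that make or regulate ribosomes were listed with earlier results of these data known. Over all genes tested 5.38% were higher and 6.62% were lower. Fau, a 40S protein with a symbol outside the rule, differed by 0.071 (adjusted p = 0.412, limma). Of 71 mitochondrial ribosomal protein genes, which serve the separate ribosome of mitochondria, 1 was higher (Mrpl13, log2 difference 0.30) and 2 were lower (Mrpl49, -0.27, and Mrps25, -0.23), with a median of -0.030. With single arrays left out that count of 3 moved between 0 and 5, and it was 0 without vehicle replicate 1, without vehicle replicate 2 or without 4OHT replicate 2. Of 28 translation factors and other TOP genes, 1 was called, the helicase gene Eif4a2 (log2 difference -0.23, adjusted p = 0.0381, limma), and the call was lost with any single array left out. With the mean of its probe sets the Eif4a2 difference was 0.082, the opposite sign.

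Ribosome biogenesis genes were called in both directions, 3 higher and 3 lower of 83, against 5.38% and 6.62% of all genes. Their median log2 difference was 0.00. The higher genes were Mdn1, an ATPase that remodels the pre-60S particle (0.45), Utp20 of the small subunit processome (0.27) and Gnl3, which encodes nucleostemin (0.23). The lower ones were Gnl2, a GTPase of 60S maturation (-0.33), Dkc1, the pseudouridine synthase dyskerin (-0.30), and Las1l, a pre-rRNA nuclease (-0.23). Their count of 6 fell to between 0 and 4 with single arrays left out. Gnl2 lost its call only without 4OHT replicate 2 (adjusted p = 0.0536, limma), Utp20 kept its call in 2 of the 6 such fits, Mdn1 in 1 and Las1l in none. The intronic snoRNA hosts Zfas1 and Epb41l4aos carry snoRNAs that guide rRNA modification. They rose by 0.29 (adjusted p = 0.0128, limma) and 0.23 (adjusted p = 0.0224, limma), as 2 of 11 measured hosts, against 5.38% of all genes higher. With the mean of its probe sets the difference of Zfas1 was 0.040 (adjusted p = 0.762, limma), which ends the call. Zfas1 also lost its call without 4OHT replicate 2 (adjusted p = 0.0590, limma), and Epb41l4aos kept its call in 1 of the 6 fits that leave out an array. The median over the 11 hosts was -0.029, and Snhg3 and Snhg6 had values of -0.18 with no call.

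In the mTORC1 and Myc pathways, which set ribosome supply, 4 of 25 genes were higher and 2 were lower, against 5.38% and 6.62% of all genes. Tsc1, which restrains mTORC1 through Rheb, read 9.86, 9.83 and 9.94 with vehicle and 10.49, 10.41 and 10.23 with 4OHT (log2 difference 0.50, adjusted p = 0.00786, limma). Mnt, a Max partner that opposes Myc at its target genes, read 9.53, 9.49 and 9.62 with vehicle and 10.00, 10.08 and 9.95 with 4OHT (0.46, adjusted p = 0.00421, limma). Both rose in every well beyond all vehicle wells, and both stayed past the threshold with any single array left out.

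The other calls in these pathways were smaller. Akt1s1 (0.20), an mTORC1 inhibitor, and Mxi1 (0.22), another Max partner, were higher, and the cap-binding protein gene Eif4e (-0.23) and Mycn (-0.21) were lower. Myc itself read 10.53, 10.65 and 10.64 with vehicle and 10.50, 10.59 and 10.75 with 4OHT, with a log2 difference of 0.0037 (95% interval -0.18 to 0.18). Larp1 differed by 0.076 (adjusted p = 0.324, limma) and Eif4ebp1, a translation repressor that mTORC1 inactivates, by 0.051 (adjusted p = 0.464, limma). The list's count of 6 lay between 2 and 4 with single arrays left out. It was 2, Tsc1 and Mnt alone, without vehicle replicate 1 or 2 or without 4OHT replicate 1 or 2. Akt1s1 kept its call in 1 of those 6 fits and Mxi1 in none, and with the mean of its probe sets Mxi1 differed by 0.15 (adjusted p = 0.164, limma).

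Cell division genes of the same wells are given as a measure of how far a called group moved. Of 7 measured, 6 fell, among them Ccna2 (log2 difference -1.58), Plk1 (-1.51), Mki67 (-1.46) and Top2a (-1.33), and all 6 were called without any single array. The median of this list was -1.33, and that of the 69 ribosomal protein genes 0.019, on the same scale. The difference between the lists was not tested.

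**Figure D5:**
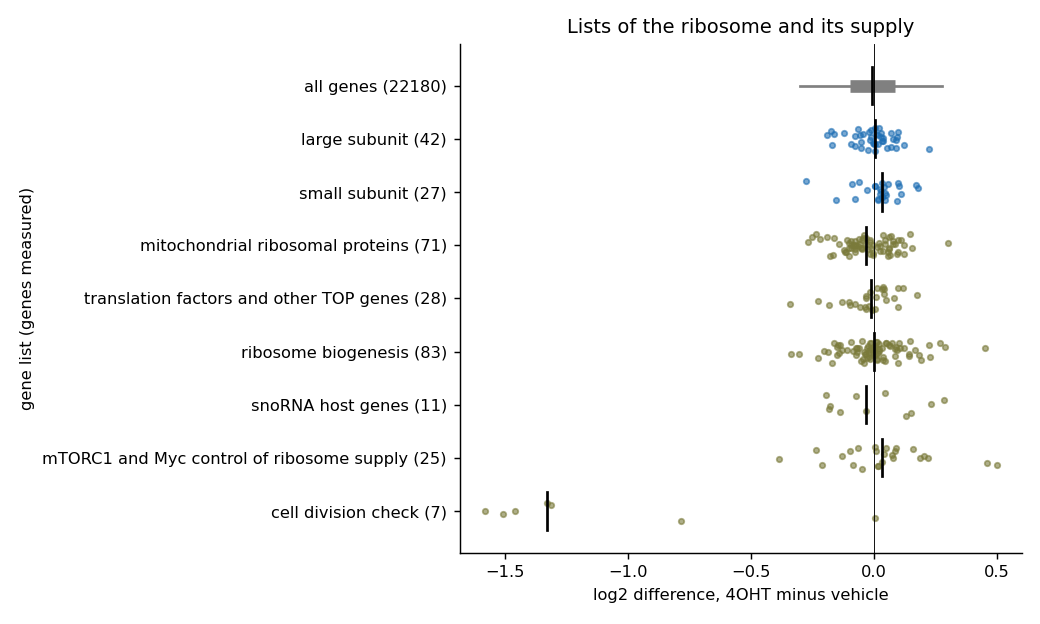
Log2 differences (4OHT minus vehicle) of the ribosomal protein genes by subunit, of the accompanying gene lists and of all genes tested. Each point is a gene and each upright black line a median, and for all genes the thin bar spans the 5th to the 95th percentile and the thick bar the 25th to the 75th. The ribosomal protein medians lie at 0.0052 and 0.032, and the cell division list lies at -1.33.

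The arrays resembled each other closely, with Pearson correlations of 0.995 to 0.998 over genes and medians of 7.44 to 7.47. The 10 fibroblast markers had mean log2 levels of 9.73 to 14.3, with 1 lower and none higher with 4OHT. Over all genes 6.62% were lower and 5.38% higher. Some markers of other cells were bright too, with mean levels of 8.81 to 14.2 for smooth muscle and pericyte genes and 7.08 to 12.9 for mesothelial genes. Epithelial genes lay at 4.23 to 9.97, endothelial genes at 6.21 to 7.74 and leukocyte genes at 5.31 to 10.2. Markers of other cells also moved, with 4 of 6 smooth muscle and pericyte genes lower. Of 6 endothelial genes 2 were higher and 2 lower, and of 5 mesothelial genes 1 was higher and 2 lower. Of 8 epithelial genes 1 was lower, and of 8 leukocyte genes 1 was higher and 1 lower. The part of these shifts in the values of the ribosomal protein genes was not tested.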

How the data were processed

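The deposited values are log2 expression values per probe set for 6 arrays, 3 vehicle and 3 4OHT. Per the labels' protocols, 100 ng of total RNA was amplified from a poly(T) primer and labelled with biotin, and oligo, RMA and limma are named, without versions, in the submitters' processing notes. No source used here gives the array's genome build. Of 41345 probe sets, 23521 carried 1 gene symbol, 1814 several and 16010 none. The first kind gave 22180 genes, each read from its probe set with the highest mean. RMA, as usually run, brings the arrays to a common distribution, so a shift shared by most genes would not show.

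Groups were compared with limma 3.58.1 in R 4.3.3 (lmFit and eBayes, 6.70 moderated degrees of freedom) with Benjamini-Hochberg adjustment over all 22180 genes, and called means an adjusted p under 0.05. The number of arrays limits the precision. Scripts were tested on simulated data. Named genes were a fixed set of subunits, paralogs and regulators, the 10 members with the highest and the 10 with the lowest log2 differences, and the 4 of smallest p in each accompanying list; Rpl10a, Rpl15, Rpl28, Rpl35, Rps26, Gnl3, Dkc1, Eif4e and Mycn were added after their values were seen. The members and lists were chosen with earlier results of these data known. Alternatives covered normalization, the variance model, the probe set per gene, array weights, a stricter threshold, the members counted and single arrays left out.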

Additional observations from a re-analysis of the deposited data

How the results depend on the processing

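The number of genes called over all genes was 2662, and it was 1568 with a replicate block, 4123 with trended and robust variances, 1010 at an adjusted p under 0.01 and between 1220 and 2326 with single arrays left out. No member was called higher in the reported fit. The count was 1 of 69 with arrays centred on their medians (Rps19, adjusted p = 0.0401, limma), where 2694 of 22180 genes were called. It was 1 after a further quantile normalization (0.0405), with 2782 genes called, and 1 with array weights (0.0332), with 3212. Among genes above the median level it was 1 of 54 members (0.00965), with 3884 of 11090 genes called. With trended and robust variances it was 3 (Rps19, Rps9 and Rpl15), with 4123 of 22180 genes called. When the probe sets that name several genes were added it was 1 of 82, with 2663 of 22193 called. With single arrays left out it lay between 0 and 1. The 1 was Rps19 without 4OHT replicate 3, where 2326 genes were called. Over all genes, wells sharing a replicate number did not deviate together (correlations 0.062, -0.024 and 0.043), so the numbers were not taken to pair them. That was not examined for the members alone. Under the replicate block the adjusted p of Rps19 (limma) was 0.112, and with the mean of its probe sets, identical ones included, 0.239. Under the block that of Rpl34 went from 0.364 to 0.135 and that of Rps16 from 0.472 to 0.172 (limma). No member was called under the block. No member was called lower except under an alternative chosen after seeing the data, the dimmest probe set of each gene. That gave 1 (Rpl35), with 2467 of 22180 genes called. The median log2 difference of the members, 0.019, was 0.040 with centred arrays, 0.0043 with the dimmest probe sets and between 0.0038 and 0.025 with single arrays left out. The large minus small subunit median lay between -0.047 and -0.0038. The difference of Eif4a2 turned to 0.082 with the mean of its probe sets. The causes were not tested. Of 966 values of named genes under alternatives 111 changed their side of the threshold, moved or turned, 87 of them to the weaker side, and of 390 list values 69 did. Dim probe sets and 3 wells per group limit what can be read.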

Other observations

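Probe sets that name several genes, among them a ribosomal protein gene, were kept out of the members because a value cannot be given to 1 gene. There were 57 such sets, with mean log2 levels of 4.66 to 13.7 and log2 differences of -0.26 to 0.40, and their median was 0.0071. Tested beside all genes, 1 of the 57 had an adjusted p under 0.05 (0.0424, limma), against 12.0% of all features in that fit (2663 of 22237). An unadjusted p under 0.05 was found for 9 of the 57, against 26.4% of all genes in the reported fit. Among the members' own probe sets, 10 sets of 3 genes (Rps12, Rps19 and Rpl23a) held values identical to another set of the same gene. Repeats were left out of the 34 other sets. The 110 probe sets and the means of a gene's probe sets include them.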
